A study of Bos taurus with 6 samples.

Results

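Pluripotent cells keep their identity through a small set of transcription factors, and 10 genes of that set or of the LIN28 pair were examined in bovine embryonic stem cells. They were chosen by name: POU5F1 (OCT4), NANOG, SOX2, SALL4, ZFP42 (REX1), ESRRB, TFCP2L1 and TFAP2C, which encode transcription factors, and LIN28A and LIN28B, which encode RNA-binding proteins. The count table held 19163 genes and had a row for 8 of the 10, and the second table, of TPM values, held 21357 genes and had a row for 9. The count table gives them by Entrez gene: 282316 (POU5F1), 538951 (NANOG), 541170 (SALL4), 614997 (LIN28A), 100138651 (ZFP42), 528437 (ESRRB), 518436 (TFCP2L1) and 511317 (TFAP2C). LIN28B was read from the TPM table, and SOX2 was not analysed here. After genes with low counts were removed, 7 of the 10 were tested on counts, and LIN28B was tested on TPM.

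The cells were F7, a single line of bovine embryonic stem cells made from in vitro fertilized Holstein Friesian embryos and kept in CTFR, a medium with FGF and the WNT inhibitor IWR1. In MC-F7 they grew on mouse embryonic fibroblasts (MEFs) of C57 mice treated with mitomycin C, which stops division but leaves the feeder cells alive, and in MT-F7 on MEFs fixed with methanol. Each group had 3 RNA-seq libraries, and 15 passages are given for both. The medium was changed daily on the live feeders and every other day on the fixed ones, so that the feeder and the feeding interval cannot be told apart in any comparison below. Before RNA was taken, dissociated cells of both groups stood on gelatin and only the floating cells were collected, which removes most but not necessarily all feeder cells. The study's statistics section speaks of technical replicates for its data in general, the sources used here do not say if the sequenced replicates were grown as separate cultures, and all are of 1 line, so the p values measure the spread between these libraries only.

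POU5F1, NANOG and SOX2 form the core of the network: they bind together at the enhancers of genes active in the early epiblast, their own genes included. SALL4 works beside POU5F1. ESRRB, TFCP2L1, TFAP2C and ZFP42 are best known from naive cells, which resemble the epiblast before implantation, and they are turned down as cells pass to the primed state. LIN28A and LIN28B block the maturation of the let-7 microRNAs, which otherwise hold down genes of growth and of the undifferentiated state. Most of this was worked out in mouse and human cells.

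The study's RT-PCR primers for POU5F1, NANOG and ZFP42 are given here 5′ to 3′, because these are 3 of the 5 factors that were lower in MT-F7. The study also followed their transcripts outside the sequencing. It ran RT-PCR for SOX2 and TFCP2L1 as well. By RT-PCR it reported OCT4 and NANOG as slightly reduced and REX1 as lower in MT-F7. By western blot and immunofluorescence it reported that MT-F7 cells still express OCT4, SOX2 and NANOG. No letters are in capitals, since no base is singled out.
POU5F1 (OCT4), forward: ggttctctttggaaaggtgtt
POU5F1 (OCT4), reverse: acactcggaccacgtctttc
NANOG, forward: ttccctcctccatggatctg
NANOG, reverse: atttgctggagactgaggta
ZFP42 (REX1), forward: ggaagaggacccactccttc
ZFP42 (REX1), reverse: acttggcctcctagtgcatc
The reverse primers read the opposite strand. RT-PCR and protein results were not analysed here, and all values below come from the sequencing.

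Reads counted on genes numbered from 21958386 to 24933430 in a library. At these depths 3 counts, the least taken as detected, are 0.120 to 0.137 counts per 1000000 counts (CPM), a limit that covers counting error only. Genes of the mitochondrial genome took 16.3%, 19.8% and 28.3% of the counts in MC-F7 replicates 1, 2 and 3, and 23.2%, 17.95% and 27.9% in MT-F7. The share was highest in replicate 3 of both groups, and results are therefore also given without both of these libraries. CPM values below are scaled by the TMM factors of edgeR, and changes are log2 fold changes of MT-F7 over MC-F7 with their standard error (SE). Over all 13001 genes tested, the median change was -0.0026 on the log2 scale. In bulk RNA, fewer cells expressing a gene and less of its RNA per cell cannot be told apart.

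Of the 7 factors tested on counts, 5 were lower in MT-F7, none was higher, and 2 did not pass the test (edgeR's quasi-likelihood test, adjusted p under 0.05). ZFP42, ESRRB, NANOG, POU5F1 and LIN28A fell, and SALL4 and TFAP2C did not pass. Of all tested genes, 23.2% were called in either direction and 11.3% were called lower. The same 5 factors had CPM ranges that did not overlap between the groups, against 20.0% of all tested genes in the same direction and 40.0% in either. With both replicate 3 libraries left out, 5 factors were again called, and the share of all genes called was 32.4%.

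POU5F1, the octamer-binding factor without which the inner cell mass does not become pluripotent, was by far the most abundant of the set. It had 1456, 1305 and 825 CPM in MC-F7 replicates 1, 2 and 3 and 557, 524 and 486 CPM in MT-F7. All 3 MT-F7 libraries lay below the lowest MC-F7 library, and MC-F7 replicate 3 stood nearest to them. The mean went from 1195 ± 329 to 522 ± 35.6 CPM (SD, n = 3), which left 43.7% of the MC-F7 level. On the log2 scale the change was -1.19 (SE 0.207, adjusted p = 0.00119). A change at least as large in this direction, with a call, was seen for 550 genes, or 4.23% of those tested.

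NANOG, the homeodomain factor that holds cells in self-renewal, had 51.6, 45.1 and 33.8 CPM in the MC-F7 libraries. Its MT-F7 libraries had 10.7, 11.9 and 9.46 CPM. The lowest MC-F7 library stood well above the highest MT-F7 library, and the 3 MT-F7 libraries were close to each other. The mean level in MT-F7 was 24.6% of that in MC-F7, a change of -2.02 (SE 0.192, adjusted p = 1.1e-05).

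ZFP42, a zinc finger protein used as a marker of undifferentiated cells, fell furthest of the set when all libraries were used. It had 26.6, 21.9 and 14.4 CPM in MC-F7 and 3.58, 3.59 and 2.29 CPM in MT-F7. Replicate 3 was the lowest of its group on either feeder. MT-F7 kept 15.0% of the MC-F7 mean, and the change was -2.73 (SE 0.262, adjusted p = 1.3e-05). Its place before ESRRB was not firm. Without MC-F7 replicate 1 the changes were -2.52 for ZFP42 and -2.63 for ESRRB.

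ESRRB, an orphan nuclear receptor that can stand in for NANOG in mouse naive cells, was present at a far lower level. It had 6.37, 7.46 and 8.83 CPM in MC-F7 and 1.31, 1.62 and 0.976 CPM in MT-F7. Here MC-F7 replicate 3 was the highest of its group rather than the lowest. The MT-F7 values rest on 33, 42 and 23 counts. MT-F7 kept 17.3% of the MC-F7 mean, a change of -2.52 (SE 0.273, adjusted p = 3.5e-05).

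The calls of POU5F1, NANOG, ZFP42 and ESRRB held in each of the 6 fits that left out 1 library. Over these fits POU5F1 changed by -1.41 to -1.03, NANOG by -2.18 to -1.88, ZFP42 by -2.94 to -2.52 and ESRRB by -2.71 to -2.37 on the log2 scale. Without both replicate 3 libraries the changes were -1.34 for POU5F1, -2.08 for NANOG, -2.74 for ZFP42 and -2.22 for ESRRB.

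**Figure D1:**
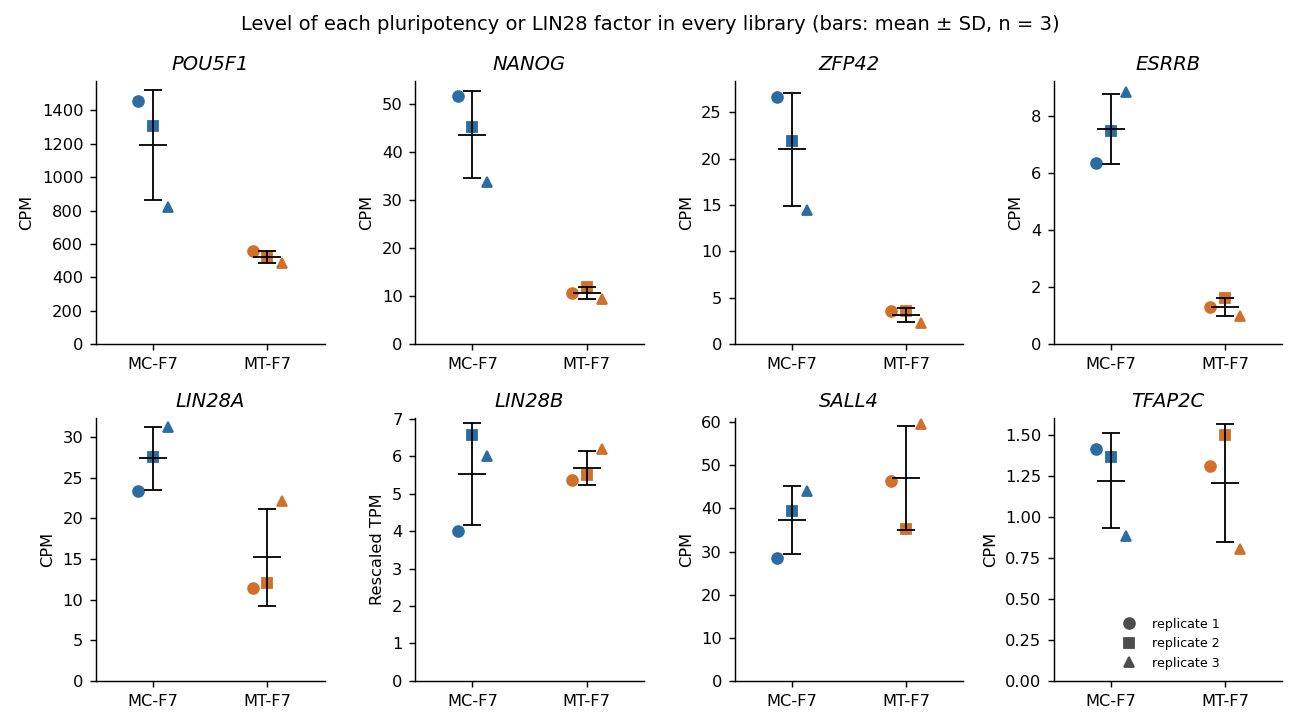
Level in each library of the 8 factors that were tested, in CPM for all but LIN28B, which is in TPM rescaled to 1000000 per library. Points are libraries (circle, square and triangle for replicates 1, 2 and 3), and bars are the mean ± SD of 3; POU5F1, NANOG, ZFP42, ESRRB and LIN28A have no overlap between the groups, while LIN28B, SALL4 and TFAP2C overlap.

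LIN28A fell less, and its call rested on single libraries. It had 23.4, 27.5 and 31.2 CPM in MC-F7 and 11.4, 12.1 and 22.1 CPM in MT-F7. The groups did not overlap, but MT-F7 replicate 3 came close to MC-F7 replicate 1, and the other MT-F7 libraries were far below both. The mean went from 27.4 ± 3.90 to 15.2 ± 5.96 CPM (SD, n = 3), a change of -0.85 (SE 0.239, adjusted p = 0.0215). The call was lost without MC-F7 replicate 2 (adjusted p = 0.0648), without MT-F7 replicate 1 (0.0925) and without MT-F7 replicate 2 (0.0874). It was also lost in limma on rescaled TPM (adjusted p = 0.0802). Without both replicate 3 libraries the change was -1.10 (adjusted p = 7.0e-05). In a fit blocked by replicate number the adjusted p was 6.7e-05. That block called 4674 genes in place of 3016, and the replicate numbers were not taken as pairs.

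LIN28B, its paralog, did not pass the test. Its rescaled TPM was 3.998, 6.58 and 6.01 in MC-F7. The MT-F7 libraries had 5.37, 5.51 and 6.20, so that they lay within the range of MC-F7. In limma on log2(TPM + 1) the change was 0.06 (SE 0.170, adjusted p = 0.880), where 15.0% of 16900 genes were called. An interval of 2 SE to either side ran from -0.28 to 0.40 on the log2 scale. For nearly all genes the TPM values were the counts divided by a fixed factor per gene, and read counts recovered on that basis were 52, 87 and 76 for the MC-F7 libraries, and 72, 74 and 83 for the MT-F7 libraries. The recovery gave back the deposited counts in all libraries for 5947 of 6058 other genes checked (98.2%, within 0.001 reads). The count test on the recovered reads gave -0.03 (SE 0.276, adjusted p = 0.945). The ratio of LIN28A to LIN28B within a library, in TPM, was 3.61, 3.2 and 3.4 on the log2 scale in the MC-F7 libraries. In the MT-F7 libraries it was 2.26, 2.35 and 2.92. Every MT-F7 library was below every MC-F7 library, with a mean ratio 0.537 times that of MC-F7, at the smallest p that 3 against 3 libraries allow (two-sided exact permutation test, p = 0.1).

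SALL4, a spalt-type zinc finger protein that works with POU5F1, had 28.5, 39.4 and 44.0 CPM in MC-F7. In MT-F7 it had 46.4, 35.2 and 59.5 CPM. The ranges overlapped, since MT-F7 replicate 2 lay below MC-F7 replicates 2 and 3. The change of 0.33 (SE 0.212) did not pass the test (adjusted p = 0.286), and 2 SE to either side ran from -0.09 to 0.76. A fall of the size seen for POU5F1, NANOG, ZFP42, ESRRB or LIN28A is outside that interval.

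TFAP2C, an AP-2 factor of naive human cells, germ cell precursors and trophectoderm, was near 1 CPM in both groups. The MC-F7 libraries held 32, 33 and 19 of its reads and the MT-F7 libraries 33, 39 and 19, with replicate 3 the lowest in each. Its change of -0.02 (SE 0.395, adjusted p = 0.981) has an interval from -0.81 to 0.77, and its sign depended on the setting. At this depth a change of up to about that size was not detectable.

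TFCP2L1, a grainyhead-like factor of naive mouse cells, had 4 counts in MC-F7 replicate 2 and 0 in the other 5 libraries. It was thus above the limit of 3 counts in that library alone. It was not tested, and a difference between the groups was not detectable at this depth. By RT-PCR the study reported a lower TFCP2L1 level in MT-F7, which was not analysed here. Its relatives TFCP2 and UBP1 were measured well: TFCP2 had 38.2 ± 4.61 CPM in MC-F7 and 38.4 ± 4.73 CPM in MT-F7 (SD, n = 3), and neither passed the test.

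**Figure D2:**
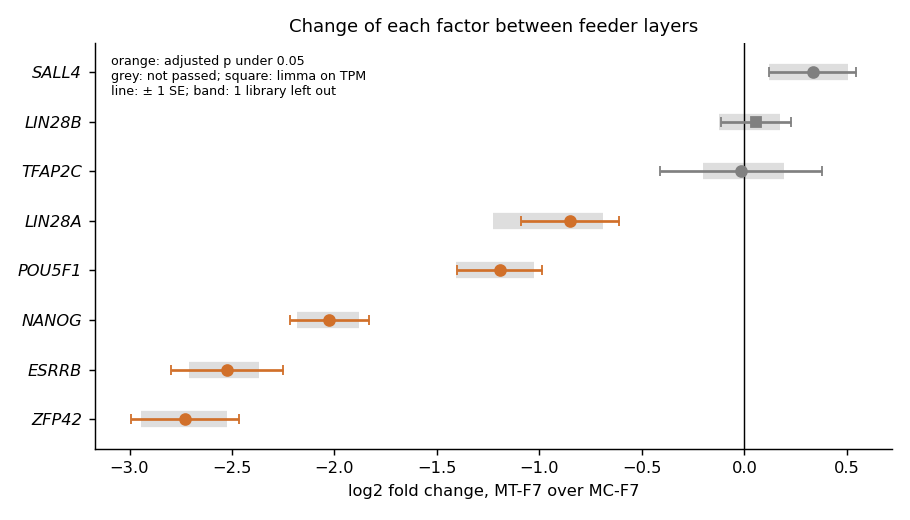
Log2 fold change of MT-F7 over MC-F7 for each tested factor (horizontal axis), with a line of ± 1 SE and a grey band for the lowest to highest value when 1 library is left out; circles are edgeR on counts and the square is limma on TPM. The 5 orange factors passed an adjusted p of 0.05 and run from ZFP42 at -2.73 to LIN28A at -0.85, and the 3 grey ones lie around 0.

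The libraries of a group did not move together across the set. Relative to the MC-F7 mean of each gene, MC-F7 replicate 3 had 69.0% of POU5F1, 77.7% of NANOG, 68.8% of ZFP42 and 72.6% of TFAP2C, and was the lowest of its group for all of these. For ESRRB it had 117%, for LIN28A 114% and for SALL4 118%, the highest of its group. In MT-F7, replicate 3 was again the lowest for POU5F1, NANOG, ZFP42 and TFAP2C and the highest for LIN28A and SALL4, with 80.7% and 159% of the MC-F7 mean, but it was the lowest for ESRRB, with 12.9%. The mitochondrial share of counts was highest in these same libraries, and its part in the values was not tested. Without the mitochondrial genes the fit again called 5 factors.

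**Figure D3:**
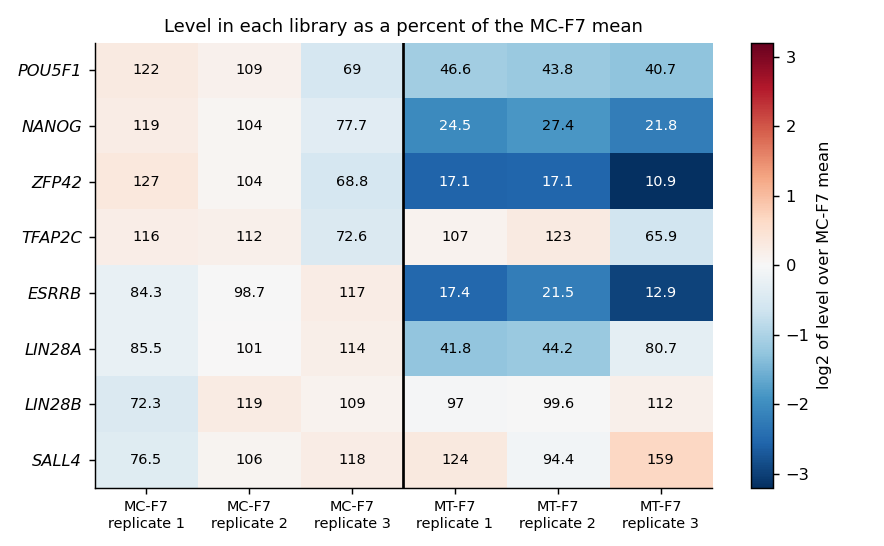
Level of each factor in each library (columns) as a percent of its mean over the 3 MC-F7 libraries, printed in each cell and coloured by its log2, from CPM for all but LIN28B, which is from rescaled TPM. POU5F1, NANOG and ZFP42 are below 50 in all MT-F7 libraries, and replicate 3 differs from replicates 1 and 2 within both groups.

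The balance between the factors was compared inside each library, where scaling between libraries plays no part. Relative to POU5F1, NANOG was lower in MT-F7 by 0.85 on the log2 scale, ESRRB by 1.38 and ZFP42 by 1.56, with every MT-F7 library below every MC-F7 library for each of the 3. The ZFP42 to POU5F1 ratio was the steadiest of all within MC-F7, at -5.77, -5.89 and -5.83 on the log2 scale of counts, and it was -7.27, -7.18 and -7.71 in MT-F7. In the other direction, SALL4 was higher relative to POU5F1 by 1.48, LIN28B by 1.15 and TFAP2C by 1.12. POU5F1 itself changed by -1.19, so a gene with no change of its own rises by about as much against it. LIN28B (0.06) and TFAP2C (-0.02) had changes near 0 of their own, so their ratios mostly restate the fall of POU5F1. The change of SALL4 itself (0.33) did not pass the test, so its higher ratio is not read as a rise of SALL4. The SALL4 to POU5F1 ratio in counts was -5.67, -5.05 and -4.23 in the MC-F7 libraries against -3.59, -3.89 and -3.03 on fixed feeders, a 2.79-fold higher mean. For LIN28A the ratio to POU5F1 differed by 0.25, with overlap between the groups (two-sided exact permutation test, p = 0.6). That difference changed sign without MC-F7 replicate 1 (-0.02) and without MT-F7 replicate 3 (-0.10). In all, 8 ratios were compared. The groups did not overlap in 7 of them, each at the smallest p the design allows (exact permutation p = 0.1, adjusted over the 8 ratios 0.114), so none passed a threshold of 0.05. POU5F1 is in 7 of the 8 ratios, which are therefore not independent. The share of all genes whose ratio to POU5F1 separates the groups was not computed, so the count of 7 is not read as a result about the factors.

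Between genes, levels were compared per length, in TPM rescaled to 1000000 per library. In MC-F7 the order was POU5F1 (1445 ± 424), LIN28A (57.6 ± 7.67), NANOG (35.1 ± 7.84), ZFP42 (30.02 ± 9.15), SALL4 (14.4 ± 3.01), LIN28B (5.53 ± 1.36), ESRRB (1.94 ± 0.289) and TFAP2C (0.572 ± 0.150), all as mean ± SD of 3 libraries. Among neighbours in that order only NANOG and ZFP42 overlapped, at 26.2 to 41.2 and 19.9 to 37.6 TPM. In MT-F7, POU5F1 (666 ± 68.6) and LIN28A (33.5 ± 11.5) stayed on top, and SALL4 (19.0 ± 4.05) came next, above NANOG (9.12 ± 1.45). Below them LIN28B (5.69 ± 0.447) and ZFP42 (4.79 ± 1.31) overlapped, and so did TFAP2C (0.600 ± 0.202) and ESRRB (0.358 ± 0.104). SALL4 thus went from the fifth place of the set to the third and NANOG from the third to the fourth, with SALL4 below NANOG in every MC-F7 library and above it in every MT-F7 library. Among all genes of the TPM table, POU5F1 was at percentile 99.6 in MC-F7 and 99.3 in MT-F7, whereas NANOG was at 88.0 and 70.1, and ZFP42 at 86.3 and 62.1.

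**Figure D4:**
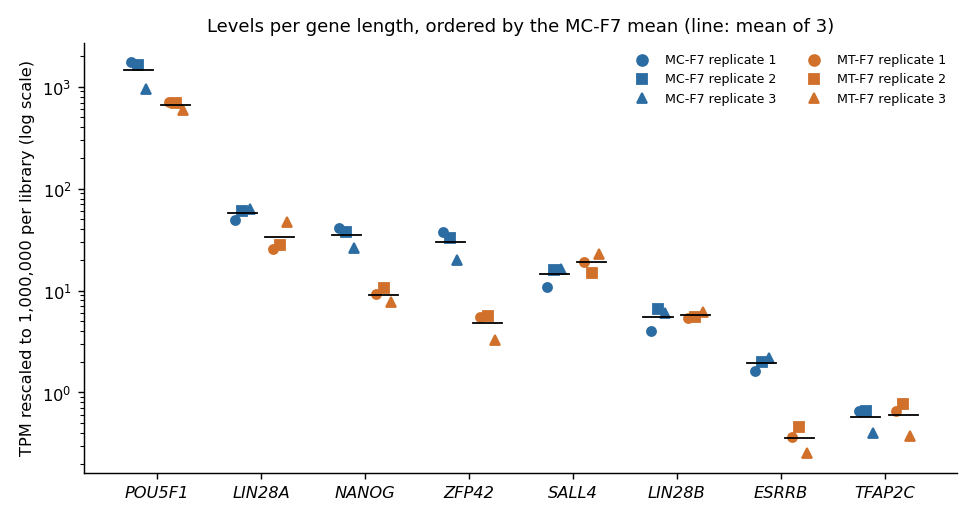
Level per gene length (vertical log axis, TPM rescaled to 1000000 per library) of the 8 factors, ordered by their MC-F7 mean, with 1 point per library and a line at the mean of 3. SALL4 lies below NANOG and ZFP42 in MC-F7 (blue) and above both in MT-F7 (orange), while POU5F1 is the highest in each group.

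The genes with the most similar pattern over the 6 libraries were found by the root mean square difference of log2 CPM, each gene centred on its own mean. For POU5F1 they were GPI, the glycolytic glucose-6-phosphate isomerase, with a difference of 0.0326, OXSM (0.0760), an enzyme of mitochondrial fatty acid synthesis, and P4HA2 (0.0924), a subunit of the collagen prolyl hydroxylase. GPI went from 172 to 76.4 CPM, a change of -1.18 against -1.19 for POU5F1. For NANOG they were KRT18 (0.101), the simple-epithelial keratin, CXHXorf38 (0.107) and RIMKLA (0.117). On the same measure ZFP42 was number 169 and ESRRB number 214 in likeness to NANOG, and NANOG was number 1379 in likeness to POU5F1. These are descriptions over 6 libraries of 2 groups.

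Relatives of the factors moved in both directions. Of 24 paralogs or family members listed, 12 were tested, 2 were higher in MT-F7 and 3 were lower, against 11.9% and 11.3% of all genes, and their median change was -0.18. The 5 calls became 2 without MC-F7 replicate 2, 1 without MT-F7 replicate 1 and 3 without MT-F7 replicate 2. SALL1, the paralog of SALL4 that is active in kidney and neural development, rose from 22.7 ± 8.69 to 49.1 ± 12.4 CPM (SD, n = 3), a change of 1.11 (SE 0.268, adjusted p = 0.0093). SALL2 had 175 ± 12.5 and 234 ± 16.2 CPM and just missed the threshold (change 0.42, adjusted p = 0.051), and SALL3 had 37.7 ± 12.1 and 29.1 ± 2.99 CPM (adjusted p = 0.23). POU3F1 (OCT6), a POU factor of the later epiblast and of neural cells, rose from 18.1 ± 2.43 to 30.7 ± 5.98 CPM (change 0.76, adjusted p = 0.0103), though not without MT-F7 replicate 1 (adjusted p = 0.0586).

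The relatives that were lower had weaker calls. ESRRA, the estrogen-related receptor of energy metabolism, had 49.3 ± 6.56 and 34.2 ± 4.32 CPM (change -0.53, adjusted p = 0.033), and its call was lost without replicate 1 or 2 of either group (adjusted p from 0.105 to 0.138). YY1, the zinc finger factor from whose gene ZFP42 arose, had 90.7 ± 15.1 and 55.2 ± 14.4 CPM (change -0.72, adjusted p = 0.022), and its call was lost without MC-F7 replicate 1 or 2 or MT-F7 replicate 1 (adjusted p from 0.0542 to 0.0799). POU2F2 was called at 1.63 ± 0.486 and 0.637 ± 0.196 CPM (change -1.34, adjusted p = 0.035) and passed only without MC-F7 replicate 1 (adjusted p in the other 5 fits from 0.0525 to 0.172). POU2F1 (OCT1), the ubiquitous POU factor, did not pass (3.95 ± 0.348 and 2.81 ± 0.144 CPM, adjusted p = 0.17).

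Around LIN28, 17 genes of the let-7 pathway were tested, of which 5 were lower, none was higher and 12 did not pass, with a median of -0.11. Of all genes, 23.2% were called and 11.3% were lower. The count of 5 became 3 without MC-F7 replicate 2 and 2 without MT-F7 replicate 1 or 2. Upstream, the enzymes that act with LIN28 or process microRNAs mostly did not pass: TUT4 and TUT7, which tail the let-7 precursor, DIS3L2, which degrades it, and DROSHA, DGCR8 and DICER1. XPO5, which exports precursors from the nucleus, was the exception at 37.1 ± 9.17 and 23.3 ± 2.51 CPM (change -0.67, adjusted p = 0.021). Its call was lost without MC-F7 replicate 2 or 3 or MT-F7 replicate 1 or 2 (adjusted p from 0.0523 to 0.0862).

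Among genes known as let-7 targets, MYCN, a MYC family factor, fell from 158 ± 13.0 to 74.8 ± 5.15 CPM (change -1.08, SE 0.145, adjusted p = 0.00019). TRIM71 (LIN41), an RNA-binding protein of undifferentiated cells, fell from 15.7 ± 2.29 to 7.92 ± 1.03 CPM (change -0.98, SE 0.190, adjusted p = 0.0026). Both held without any single library. PLAGL2, a zinc finger factor, had 4.90 ± 1.49 and 2.37 ± 0.173 CPM (change -1.05, adjusted p = 0.018) and was not called without MC-F7 replicate 3 or MT-F7 replicate 1 or 2 (adjusted p from 0.0573 to 0.0605). IGF2BP1 was called (change -0.49, adjusted p = 0.042) and passed only without MC-F7 replicate 3 (adjusted p in the other 5 fits from 0.0674 to 0.140). HMGA2, a classic let-7 target, had 7.28 ± 0.337 and 10.2 ± 1.07 CPM and did not pass (change 0.49, adjusted p = 0.073), and let-7 itself is not measured by these libraries.

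Of the proteins that bind POU5F1, NANOG or SALL4, few changed at the RNA level. Of 24 listed, among them subunits of the NuRD and BAF chromatin remodelling complexes, 23 were tested, none was higher, 1 was lower and their median change was 0.03, where 23.2% of all genes were called and 11.3% were lower. The one that fell was MTA3, a NuRD subunit, from 123 ± 6.56 to 61.8 ± 10.9 CPM (change -0.996, SE 0.163, adjusted p = 0.00080). NACC1, a partner of NANOG, had 567 ± 48.2 and 403 ± 75.2 CPM (adjusted p = 0.055), and SMARCA4, the ATPase of the BAF complex, had 263 ± 13.7 and 350 ± 8.21 CPM (adjusted p = 0.051). Without both replicate 3 libraries, 3 genes of this list were called (32.4% of all genes), and 2 were without replicate 3 of either group alone.

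Other genes associated with naive cells split. Of 26 listed, 15 were tested, 5 were lower, 2 were higher and 8 did not pass, with a median of -0.12, against 11.3% lower and 11.9% higher over all genes. Among those that did not pass were KLF4 (adjusted p = 0.21), KLF5 (0.75), PRDM14 (0.67) and STAT3 (0.060). TBX3 was higher in MT-F7 (change 3.62, adjusted p = 0.0012), on 3, 6 and 0 counts in MC-F7. It passed the count filter through MT-F7, and the size of its rise is uncertain. GDF3, a TGF-beta family ligand of pluripotent cells, fell from 22.7 ± 2.72 to 1.40 ± 0.397 CPM (change -4.02, SE 0.237, adjusted p = 6.4e-07), further than any of the 7 factors tested. TDGF1 (listed as CRIPTO), the co-receptor for NODAL and GDF3, fell from 12.6 ± 3.03 to 1.99 ± 0.295 CPM (change -2.65, SE 0.250, adjusted p = 1.1e-05). LEFTY2, a NODAL antagonist and target, fell by 4.84 on the log2 scale (adjusted p = 1.1e-05), on 3, 9 and 2 counts in MT-F7. LEFTY2 and DPPA4 (4, 5 and 4 counts in MT-F7), both among the 5 called lower, passed the count filter through MC-F7. SPP1 (osteopontin), whose enhancer is a known POU5F1 site, rose from 3.92 ± 0.891 to 17.7 ± 3.31 CPM (change 2.17, SE 0.229, adjusted p = 2.9e-05). UTF1, a chromatin factor of undifferentiated cells that was measured by TPM only, was at 474 ± 61.2 TPM in MC-F7 and 278 ± 17.0 TPM in MT-F7 (limma change -0.76, adjusted p = 0.0121). Without both replicate 3 libraries, 9 genes of this list were called in place of 7, while the share of all genes went from 23.2% to 32.4%.

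Genes of formative or primed cells split as well. All 14 listed were tested, 4 were higher, 3 were lower and the median change was 0.16, against 11.9% higher and 11.3% lower over all genes. FGF5, an epiblast ligand, rose from 0.297 ± 0.0841 to 1.77 ± 0.210 CPM (change 2.56, SE 0.432, adjusted p = 0.0010). With only 7, 5 and 8 counts in MC-F7, it passed the count filter through MT-F7. SFRP2, a secreted WNT modulator, rose from 136 ± 26.6 to 611 ± 38.7 CPM (change 2.17, SE 0.177, adjusted p = 4.2e-06), and CDH2 (N-cadherin) from 107 ± 23.5 to 301 ± 44.9 CPM (change 1.5, SE 0.193, adjusted p = 0.00014). DNMT3B, a de novo DNA methyltransferase, fell from 448 ± 37.2 to 195 ± 33.9 CPM (change -1.20, SE 0.168, adjusted p = 0.00025), a change of nearly the size of that of POU5F1. Called genes numbered 9 without both replicate 3 libraries, where 32.4% of all genes were called.

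Markers of other cell types also differed between the groups, and their counts stand against 11.9% of all genes called higher and 11.3% called lower. Of 7 neural progenitor markers tested, 6 were higher in MT-F7, with a median change of 2.13, and the summed level of the list was 471 to 565 CPM in MC-F7 and 1172 to 1260 CPM in MT-F7. PAX3, a neural crest and neural tube factor, rose from 0.227 ± 0.200 to 2.88 ± 0.907 CPM. Its MC-F7 libraries held only 7, 9 and 0 counts, so it passed the count filter through MT-F7 and the size of its rise is uncertain. LHX2 rose from 34.6 ± 3.15 to 324 ± 52.2 CPM and PAX6 from 2.63 ± 0.259 to 19.9 ± 0.591 CPM (SD, n = 3), both regulators of forebrain and eye. NEUROG2, which drives neurogenesis, was at 0 counts in all MT-F7 libraries. Of 14 fibroblast markers tested, 4 were higher, none was lower and 10 did not pass, with summed levels of 296 to 391 CPM in MC-F7 and 606 to 767 CPM in MT-F7. Most of the rise of that sum was ACTA2 alone, from 85.2 ± 16.3 to 309 ± 71.2 CPM. COL1A1, COL1A2, DCN, LUM, THY1 and TWIST1 were among those that did not pass. PRRX1, at 0.670 and 0.215 CPM, did not pass either (change -1.61, adjusted p = 0.054). The 4 fibroblast calls became 3 without MC-F7 replicate 1 or 2 and without MT-F7 replicate 2 or 3. ACTA2, smooth muscle actin, rose by 1.86 and COL3A1 by 1.65 on the log2 scale, while PDGFRA was at 1.01 ± 0.491 and 1.18 ± 0.0876 CPM and did not pass, and FAP was at 0 in all MT-F7 libraries. Reads of mouse feeder RNA that match bovine genes cannot be told apart in these counts. The study reported that a larger share of reads aligned to the bovine genome in MT-F7 than in MC-F7. It proposes that fixed feeders left fewer feeder cells among the collected cells, which was not tested here. The part of either list in the lower levels of the factors was not tested.

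Of 6 trophectoderm markers tested, 4 were lower and none was higher, with a median change of -1.08, against 11.3% of all genes lower. The 4 calls became 2 without MT-F7 replicate 1 or 2. The sum of the list, most of it keratins KRT8 and KRT18, was 1836 to 2841 CPM in MC-F7 and 688 to 799 CPM in MT-F7, while CDX2, the defining factor of trophectoderm, had 0 counts in all 6 libraries. Of the hypoblast markers, GATA4 and AFP were at 0 in all libraries and only 2 genes were tested: FOXA2, which fell by 3.26, and RSPO3, which rose by 1.56 on the log2 scale. Of 6 germ cell markers tested, 2 were higher and 3 were lower. The 2 higher were MAEL (7, 6 and 7 counts in MC-F7) and PIWIL1 (10, 8 and 6). Both passed the count filter through MT-F7, so the size of their rise is uncertain. The 5 calls became 3 without MC-F7 replicate 1 or MT-F7 replicate 3, and 2 without replicate 2 of either group. SYCP3, a protein of the meiotic chromosome axis, fell from 3.03 ± 0.778 to 0.583 ± 0.216 CPM, and DDX4 and DAZL, which define germ cells, had at most 3 counts in any library. The part of these lists in the results above was not tested. Without both replicate 3 libraries, the called genes numbered 6 for the neural, 4 for the fibroblast, 4 for the trophectoderm, 2 for the hypoblast and 4 for the germ cell list, where 32.4% of all genes were called.

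**Figure D5:**
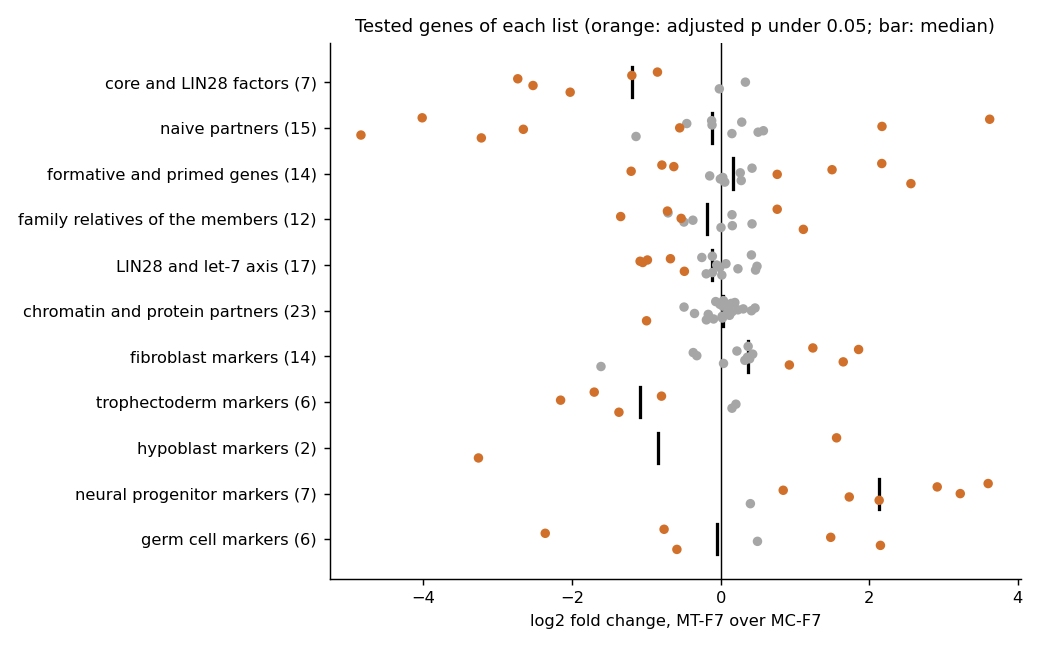
Log2 fold change of MT-F7 over MC-F7 (horizontal axis) for each tested gene of each list (rows, number tested in brackets), orange where the adjusted p was under 0.05 and grey where it was not, with a bar at the median. The core and LIN28 factors have their median at -1.19, the chromatin and protein partners cluster around 0, and the neural progenitor markers have their median at 2.13.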

How the data were processed

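RNA-seq of bovine F7 cells on 2 feeder layers, 3 libraries each, was used. Per the labels and the methods, the authors aligned reads with HISAT2 2.0.5 to a Bos taurus genome, whose build is not given in the sources used here, and deposited featureCounts 1.5.0-p3 raw counts per Entrez gene. They also deposited values called TPM per Ensembl gene. These added up to 154763 to 164394 per library and were rescaled to 1000000. How reads matching several places were treated is not given in the sources used here, so copies of a gene could share its reads.

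Genes were filtered with filterByExpr (minimum count 10, minimum total count 15), normalized by TMM and tested with edgeR 4.0.16 (quasi-likelihood, two-sided, no block, Benjamini-Hochberg over 13001 genes, adjusted p under 0.05). TPM was tested with limma 3.58.1 on log2(TPM + 1), which understates changes of low genes. Ratios within a library used counts + 0.5, or TPM for LIN28B. R 4.3.3, Python 3.11.15, scipy 1.17.1 and matplotlib 3.10.9 were used, and the steps were tested on simulated data.

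The 10 factors and all gene lists were chosen with earlier results of these data known. All 10 factors are named, with up to 4 called genes per list of the largest change and a mean of at least 1 CPM, relatives of at least 1 CPM, and the 3 genes most alike POU5F1 and NANOG (CPM + 0.1). Other genes are named as examples. IGF2BP1, HMGA2, NACC1, SMARCA4, UTF1, PDGFRA and the markers near 0 were picked after their values were seen. So were KLF4, KLF5, PRDM14, STAT3, TBX3, DPPA4, MAEL, PIWIL1 and the other fibroblast markers named as not passed. As alternatives, counts were scaled by RLE factors or by library size alone and tested with DESeq2 1.42.0, and the fit was repeated with all genes with a count, at least 10 counts in every library, a replicate block, each library left out, TPM pseudocounts of 1 and 0.1, and no mitochondrial genes. Leaving out both replicate 3 libraries and adding recovered LIN28B reads were chosen after seeing the data.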

Additional observations from a re-analysis of the deposited data

How the results depend on the processing

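The calls of NANOG, ZFP42 and ESRRB kept their direction and stayed past the threshold in all 18 alternatives, and SALL4 stayed above 0 and short of it in the same 18. POU5F1 missed the threshold in 1, limma on log2(deposited TPM + 1), with a change of -1.02 (adjusted p = 0.0767), where 3 of the factors were called in place of 5. LIN28A missed it in 6. With 1 library left out, 4 to 5 factors and 1914 to 3093 genes were called against 3016, the fewest without MC-F7 replicate 2. The replicate block called 4674 genes and the same number of factors, 5. It cannot change the differences of the 8 ratios, since a mean of paired differences equals the difference of the means. The smallest exact p of 3 pairs is 0.25. Libraries with the same number deviated together with r of 0.167, 0.0708 and 0.505 across genes, and not every library correlated best with its own number, so the numbers were not taken as pairs. TFAP2C, near 0 in the main test, had the other sign with library size only (0.0022), in limma (0.0098 and 0.0508 on deposited TPM + 1 and + 0.1, 0.0225 on rescaled TPM) and without both replicate 3 libraries (0.0364), and ran from -0.20 to 0.20 with 1 library left out. LIN28B ran from -0.13 to 0.18 with 1 library left out and was -0.034 with recovered reads. The LIN28A to POU5F1 ratio ran from -0.10 to 0.60. The cause of these shifts was not tested. Genes that reached about 10 counts in fewer than 3 libraries, TFCP2L1 among them, were too low to test at this depth. Genes that were low in only 1 group, such as LEFTY2, TBX3, MAEL and FOXA2, were tested, since they passed the filter through the other group.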
